A study of Mus musculus with 8 samples.

Results

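Fibronectin and the matricellular proteins were followed in the ileum of mouse embryos that lack LGR5, the R-spondin receptor by which stem cells of the intestine are recognised. The set was chosen by name, with earlier results of these data known. It holds 9 genes: Fn1, Sparc, Postn, Tnc, Thbs1, Thbs2, Spp1, Vcan and Fbln1. Probes whose gene symbol is one of these names were found for 8 of the 9 genes, 21 probes of 36591 tested, or 8 genes of 15123. No probe carries the symbol Spp1 (osteopontin), which was not analysed here.

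Each array set ileum RNA of an LGR5-/- embryo against ileum RNA of an LGR5 +/+ embryo, both at stage E18.5 (days of embryonic development) per the labels and at E18.5 to E19 per the design text. There were 4 such pairs, from 3 LGR5+/- couples, and each pair was hybridised on 2 arrays with the dyes exchanged. Some embryos of different pairs therefore have the same parents, so the pairs are not fully independent. Which pairs share a couple, the strain and the form of the null allele are not stated in the labels. All values below are log2 ratios of null over wild type, 1 per pair after averaging its 2 arrays, so that 0 means equal signal and a negative value means less signal in the null ileum. The deposited ratios hold no expression levels, so neither the tissue nor the abundance of a gene could be checked from them, and genes cannot be ranked by amount.

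Fibronectin is the fibre-forming glycoprotein on which cells pull through integrins. Matricellular proteins sit in the same matrix but mainly modulate how cells attach, migrate and receive growth factors, and many are most abundant in developing or healing tissue. In the fetal gut such proteins are made largely by mesenchymal cells under the epithelium, and fibronectin is also a plasma protein made by the liver.

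Some features of the pairs bear on every value below. The Lgr5 probe itself averaged -1.59 ± 0.47 (SD, n = 4 pairs) and was used to set the direction of all ratios, so it is no independent check of them. In pair 1 the Y-linked genes Eif2s3y and Kdm5d stood at -4.56 and -2.42. They lay between -0.035 and 0.898 and between -0.055 and 0.132 in the other pairs. In pair 1 the median of 10 immediate early genes stood at 0.73 and that of 10 macrophage genes at 0.34. In pair 3 the medians of 10 fetal liver, 6 exocrine pancreas and 6 erythroid genes stood at 1.95, 2.31 and 1.53. The other pairs had these medians between -0.57 and 0.51. The highest of them were in pair 4, at 0.44 for fetal liver and 0.51 for exocrine pancreas genes. The lowest was the erythroid median of pair 2, so pairs 2 and 4 are not free of such differences. The part of these differences in the ratios below was not tested, and results are also given without pairs 1 and 3. In whole ileum, fewer cells of a type and less RNA per cell cannot be told apart.

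Of the 8 measured genes, Postn, Vcan and Fbln1 were below 0 in each of the 4 pairs, and the other 5 had ratios on both sides of 0. The largest mean was that of Postn, at -0.62 ± 0.54 (SD, n = 4), which is 0.650-fold, followed by Vcan at -0.23 ± 0.08 and Fbln1 at -0.21 ± 0.26. Among all genes 8.28% were below 0 in all 4 pairs and 7.31% above 0 in all 4, and no gene of the set was above 0 in all 4. None of the 8 genes passed the test against 0 (limma, Benjamini-Hochberg adjusted over all genes, threshold 0.05), with adjusted p from 0.691 to 0.971. Likewise 0 of all 15123 genes and 0 of all 36591 probes passed, or 0.0% of either. At an unadjusted p under 0.05 the count was 2 of 8, Postn and Vcan, both below 0, where 3.68% of all genes were below 0 and 2.64% above 0 at that level. Among single probes 4 of the 21 were below 0 in all 4 pairs, against 7.44% of all probes, and they were both Postn probes, the Vcan probe and 1 of the 3 Fbln1 probes. An ordinary 1-sample test also passed 0 genes. When the 8 arrays were fitted singly with pair as a random block, 59 genes passed, or 11 genes with a dye term in that fit, and 0 of the 8 genes of the set in either, their lowest adjusted p being 0.125 for Vcan and, with the dye term, 0.252 for Postn. The median of the 8 gene means was -0.09, against 4.17e-05 over all genes.

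**Figure D1:**
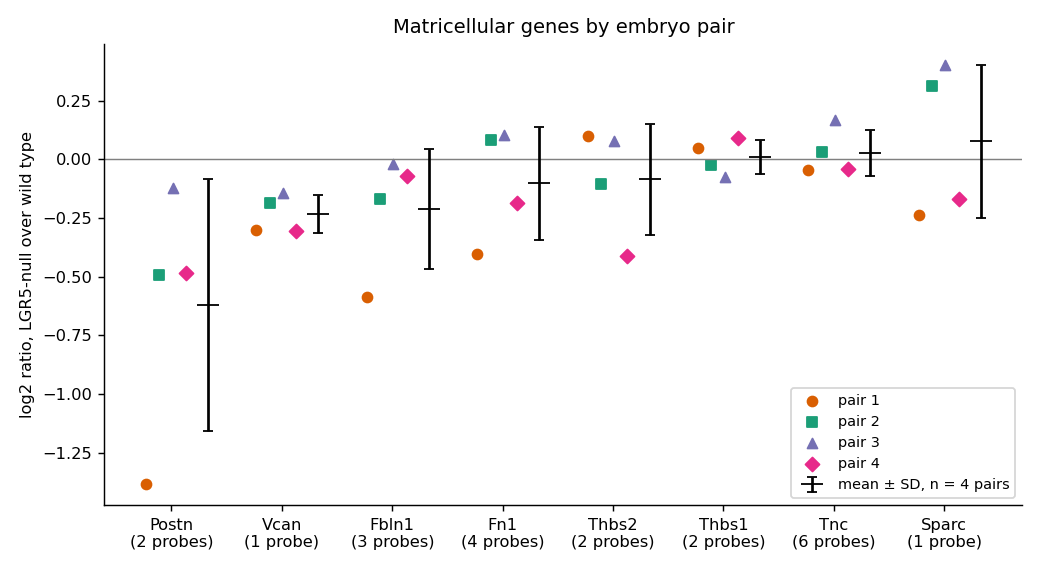
Log2 ratio of LGR5-null over wild-type ileum (vertical axis) for each of the 8 measured genes, ordered by their mean. Coloured symbols are the 4 embryo pairs, each the mean of its probes and of 2 dye-swapped arrays, and black bars are the mean ± SD over the 4 pairs. Postn spreads from -1.39 to -0.12 while the 4 values of Vcan lie between -0.31 and -0.14.

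The 3 genes that were below 0 in every pair are shown here with the 250 bases before a transcription start, beside Thbs2, whose ratios lay on both sides of 0. The sequences are from RefSeq on mouse build GRCm38.p6 and read 5′ to 3′ on the strand of the gene. The promoter windows at hand covered 7 of the 9 genes, without Fn1 and Thbs1. Where 2 starts are listed the one shown is the downstream one. Capitals mark matches to the motifs TATAAA (the TATA box) and CCAAT (the CCAAT box) on either strand. The TCF/LEF word CTTTG followed by 2 bases that are each A or T, bound by the factors at the end of the Wnt pathway, and the AP-1 word TGANTCA were also searched on both strands, and no match to them lies in these 4 windows. None of the marked matches overlap.
Postn, chr3:54360857-54361106, plus strand: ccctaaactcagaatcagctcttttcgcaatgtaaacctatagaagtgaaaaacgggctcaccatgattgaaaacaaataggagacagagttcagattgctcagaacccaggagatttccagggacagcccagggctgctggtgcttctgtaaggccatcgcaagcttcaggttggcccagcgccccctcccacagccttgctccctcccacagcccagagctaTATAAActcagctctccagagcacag
Vcan, chr13:89742513-89742762, minus strand: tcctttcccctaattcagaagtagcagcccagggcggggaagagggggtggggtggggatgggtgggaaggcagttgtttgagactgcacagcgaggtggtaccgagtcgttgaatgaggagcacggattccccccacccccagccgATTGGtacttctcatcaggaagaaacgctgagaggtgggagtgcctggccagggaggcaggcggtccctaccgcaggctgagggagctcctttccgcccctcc
Fbln1, chr15:85205758-85206007, plus strand: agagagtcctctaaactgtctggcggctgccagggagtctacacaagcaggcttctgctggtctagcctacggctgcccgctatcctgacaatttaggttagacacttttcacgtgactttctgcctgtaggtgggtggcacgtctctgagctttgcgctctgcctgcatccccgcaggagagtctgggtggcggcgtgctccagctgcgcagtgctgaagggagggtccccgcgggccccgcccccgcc
Thbs2, chr17:14694263-14694512, minus strand: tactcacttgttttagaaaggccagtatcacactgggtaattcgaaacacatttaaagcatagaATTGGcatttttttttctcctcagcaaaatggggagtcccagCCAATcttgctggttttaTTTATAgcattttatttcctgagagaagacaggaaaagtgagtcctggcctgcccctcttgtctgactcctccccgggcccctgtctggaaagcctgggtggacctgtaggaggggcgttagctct
The Postn window has 1 TATAAA match close to the start, the Vcan window has 1 CCAAT match and the Fbln1 window has no match. The Thbs2 window has 1 TATAAA and 2 CCAAT matches. Its TATAAA match is on the opposite strand (TTTATA) and, unlike that of Postn, does not lie close to the start. Of 32851 promoter windows of the same length in the table, 12.4% hold TATAAA, 33.8% hold CCAAT, 14.8% hold the TCF/LEF word and 6.75% hold the AP-1 word. The Vcan and Fbln1 windows have 10 and 14 CpG dinucleotides, the Postn and Thbs2 windows 4 and 3, against a median of 6 over all windows. No motif searched was present in all 3 windows of the genes below 0, and the match of a word says nothing of binding in these embryos.

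Periostin, encoded by Postn, is a secreted matrix protein that binds collagen, fibronectin, tenascin C and integrins. Postn stood at -1.39, -0.49, -0.12 and -0.49 in pairs 1 to 4. All 16 readings of its 2 probes on the 8 arrays were below 0. Its 95% confidence interval by limma's moderated spread ran from -1.16 to -0.08, or 0.447 to 0.946 of the wild-type level, and the adjusted p was 0.748. The 2 probes read the same in pair 1, at -1.388 and -1.382, but not in the others. Probe mMC021500 stood at -0.76 in pair 2, -0.16 in pair 3 and -0.76 in pair 4, and probe mMA035039 at -0.22, -0.09 and -0.21 in the same pairs. Pair 1 therefore held the lowest value of both probes, and pair 3 the one closest to 0. Without pair 1 the mean of Postn was -0.37, with each of the other pairs below 0.

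Versican, encoded by Vcan, is a large chondroitin sulfate proteoglycan that binds hyaluronan and makes loose, hydrated matrix. Its single probe gave -0.30, -0.19, -0.14 and -0.31 in pairs 1 to 4, and all 8 arrays read below 0, from -0.35 to -0.02. The mean of -0.23 ± 0.08 is 0.850 of the wild-type level, with a 95% interval from 0.788 to 0.917, and the adjusted p was 0.691. The spread between pairs was narrower than for any other gene of the set except Thbs1. Vcan was also one of the genes that did not differ between pairs by more than the arrays of a pair (adjusted p = 0.523).

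Fibulin 1, encoded by Fbln1, is a calcium-binding glycoprotein that joins fibronectin, basement membrane and elastic fibres and is a partner of versican. Fbln1 stood at -0.59, -0.17, -0.021 and -0.073 in pairs 1 to 4, a mean of 0.863 of the wild-type level with a 95% interval from 0.717 to 1.039 and an adjusted p of 0.806. Its 3 probes read alike in pair 1, at -0.53, -0.62 and -0.62, and parted in pairs 3 and 4. There mMC025493 gave -0.23 and -0.33, mMR030486 gave 0.12 and 0.16, and mMA034195 gave 0.047 and -0.05. Only mMC025493 was below 0 in all 4 pairs, and with the median of the probes in place of their mean Fbln1 was no longer below 0 in all 4, which left 2 of the 8 genes, against 8.19% of all genes. When only arrays carrying null RNA in Cy5 were used, 4 of the 8 genes were below 0 in all 4 pairs, against 12.0% of all genes. Without pair 1 its mean was -0.087.

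Fibronectin, encoded by Fn1, had a mean of -0.10 ± 0.24 (SD, n = 4; 95% interval -0.35 to 0.15; adjusted p = 0.845), with -0.40, 0.08, 0.10 and -0.19 in pairs 1 to 4. Its 4 probes did not read alike. Probes mMA033013 and mMC005040 read alike, at -0.67 and -0.62 in pair 1, 0.024 and 0.022 in pair 2, 0.34 and 0.32 in pair 3, and -0.16 and -0.14 in pair 4. Probe mMA031660 gave -0.33, 0.15, -0.11 and -0.28, and probe mMA032461 gave 0.0055, 0.12, -0.14 and -0.17. In pair 3 mMA033013 and mMC005040 were above 0 on both arrays and the other two below 0 on both. Fibronectin messages are alternatively spliced, and the plasma form from the liver lacks exons that the form made by fibroblasts keeps. Which exon each probe matches is not stated in the files, and pair 3 is the pair with the high liver markers, whose part in this split was not tested. Without pair 1 the mean of Fn1 was -0.0012.

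**Figure D2:**
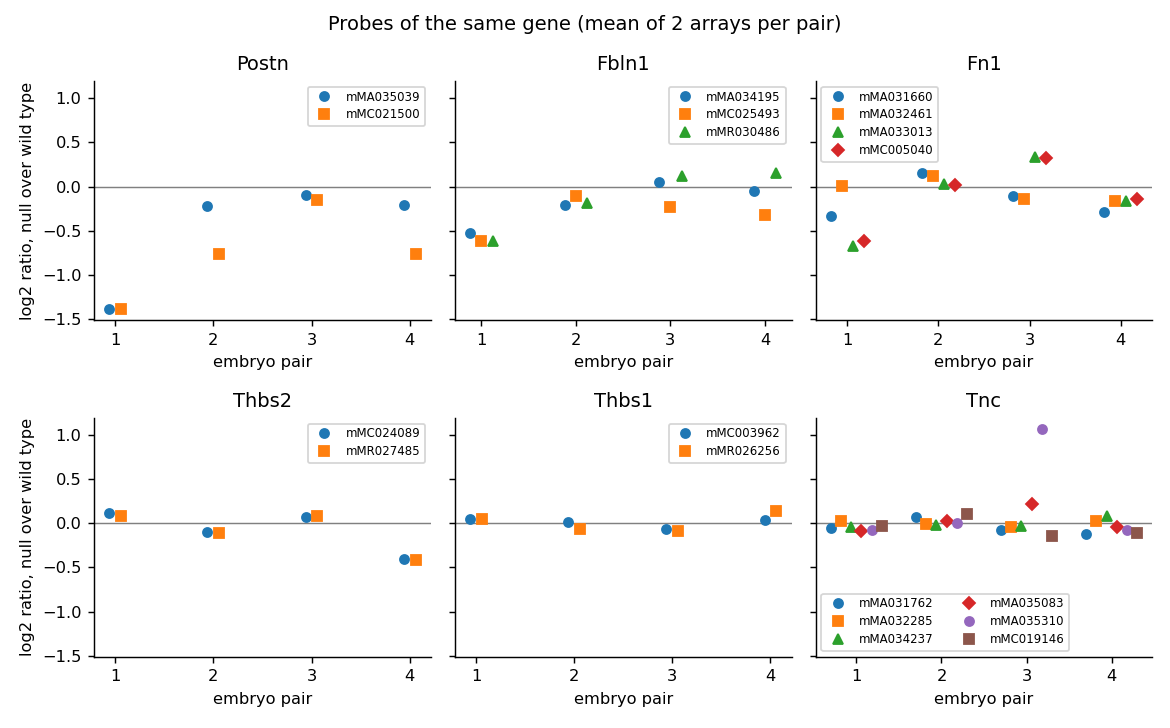
Log2 ratios of null over wild type (vertical axis) in embryo pairs 1 to 4 (horizontal axis) for each probe of the 6 genes with several probes, each symbol the mean of 2 dye-swapped arrays. The 2 Thbs2 probes coincide in every pair, the 4 Fn1 probes split in pairs 1 and 3, and 1 Tnc probe stands at 1.07 in pair 3.

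The thrombospondins Thbs1 and Thbs2 are trimeric matricellular proteins that restrain blood vessel growth through CD36 and CD47, and Thbs1 also activates latent TGF-beta. Thbs1 stood at 0.047, -0.026, -0.075 and 0.09 in pairs 1 to 4, with a mean of 0.009 ± 0.074 and the narrowest spread of the set. Its 95% interval ran from 0.937 to 1.081 of the wild-type level. Thbs2 stood at 0.10, -0.11, 0.076 and -0.41, with a mean of -0.09 ± 0.24 and an interval from 0.794 to 1.118. Its 2 probes read alike throughout, with -0.410 and -0.414 in pair 4 and 0.11 and 0.087 in pair 1. Thbs2 minus Thbs1 averaged -0.09 ± 0.29 over the pairs, was negative in 2 of 4 and stood at -0.50 in pair 4, so the 2 genes did not differ beyond the spread between pairs.

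Tenascin C, encoded by Tnc, is a large hexameric protein of gut mesenchyme and smooth muscle that weakens the adhesion of cells to fibronectin. Its 6 probes gave a mean of 0.027 ± 0.099, with -0.046, 0.029, 0.17 and -0.042 in pairs 1 to 4. In pair 3 a single reading stands apart. Probe mMA035310 read 2.07 on the second array of that pair, against 0.072 on the first and -0.10 to 0.075 on the arrays of the other pairs. With that array left out the mean of Tnc was -0.016, and with the median of the probes it was -0.032. The other 5 probes had means between -0.047 and 0.028.

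SPARC, encoded by Sparc, is a collagen-binding protein of fibroblasts and endothelium. Its single probe stood at -0.24 and -0.17 in pairs 1 and 4 and at 0.31 and 0.40 in pairs 2 and 3, a mean of 0.076 ± 0.33 (95% interval -0.26 to 0.41). Both arrays of each pair had the same sign, and the gap between them was at most 0.25. Between pairs it differed by more than the arrays of a pair (adjusted p = 0.0123).

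Ordered by mean ratio the genes ran Postn, Vcan, Fbln1, Fn1, Thbs2, Thbs1, Tnc and Sparc. No neighbours in this order kept the same order in all 4 pairs, and each difference between neighbours was smaller than its SD over the pairs. The closest to its SD was Vcan over Postn, 0.39 ± 0.48. Postn and Vcan each lay below Tnc in every pair. Vcan minus Tnc ran from -0.31 to -0.21 over the 4 pairs (-0.26 ± 0.04), and Postn minus Tnc from -1.34 to -0.29 (-0.65 ± 0.47). Pair 3 of both differences holds the Tnc reading of 2.07. On the first array of that pair alone Vcan minus Tnc was -0.018 and Postn minus Tnc -0.14, which makes the means -0.19 ± 0.12 and -0.61 ± 0.51. These 2 pairs of genes were picked after their values were seen, and with 4 pairs an exact sign-flip test cannot go below p = 0.125.

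The pairs differed from each other at 10 of the 21 probes (limma moderated F-test on the 8 arrays, adjusted p under 0.05), against 22.9% of all probes and 26.1% of those with a gene symbol. These were both Postn probes, the 3 Fbln1 probes, both Thbs2 probes, Fn1 probes mMA033013 and mMC005040 and the Sparc probe. The lowest adjusted p was 0.000257, for Postn probe mMA035039, and no probe of Tnc, Thbs1 or Vcan passed. The error of this test is the gap between arrays of a pair and hence technical, so ordinary differences between embryos can pass it. Without pair 1 the number was 2 of the 21, Fn1 probe mMA033013 and Thbs2 probe mMR027485, and the share of all probes was 4.27%. Pair 1 held the lowest of the 4 values for 5 of the 8 genes, though for Tnc by little, at -0.046 against -0.042 in pair 4.

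The arrays of a pair mostly gave ratios of the same sign for these genes. Of 84 readings of a probe in a pair, 71 had the same sign on both arrays. The median gap between the arrays was 0.099, against 0.101 for all probes (the median of the medians of the pairs). Over all probes tested, the correlation between the 2 arrays of a pair ran from 0.31 to 0.78. The largest gap was 2.00, for the Tnc probe described above, and the next largest was 0.32. The dye term passed the threshold for 0 of the 21 probes (limma, lowest adjusted p = 0.168), against 3.6% of all probes.

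**Figure D3:**
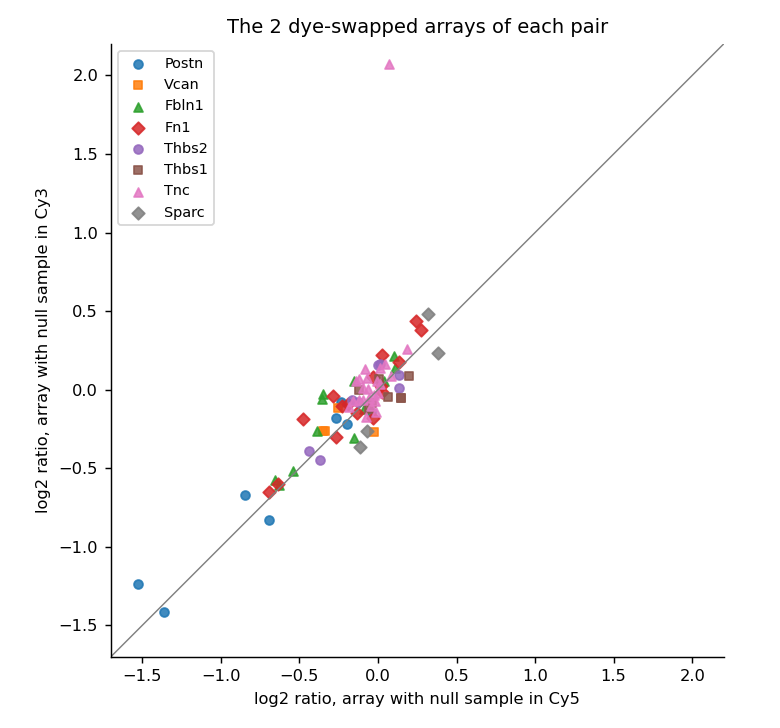
Log2 ratio of null over wild type on the array with the null sample in Cy5 (horizontal axis) against the array with the null sample in Cy3 (vertical axis), 1 symbol for each of 84 readings of a probe in a pair, and the line of equality. Most readings lie near the line, Postn reaches lowest on both axes, and 1 Tnc reading at 2.07 stands alone.

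The closest relatives of these proteins were read from lists chosen by family, with earlier results of these data known. In each of 5 of these families 1 or 2 genes were below 0 in all 4 pairs, with an unadjusted p under 0.05, while the rest were mixed. In the SPARC family these were Sparcl1 at -0.26 ± 0.10 and Fstl1 at -0.21 ± 0.17, of 7 measured. Thbs3 stood at -0.32 ± 0.11, whereas Thbs4 and Comp, the other 2 of the thrombospondin family, stood at 0.058 ± 0.11 and 0.009 ± 0.059. Tnxb, of 3 further tenascins, stood at -0.22 ± 0.20, and Fbln2, of 4 further fibulins, at -0.39 ± 0.11. Hapln1, which locks versican to hyaluronan, stood at -0.52 ± 0.19, or 0.698 of the wild-type level, while the other 5 lecticans and link proteins had means between -0.017 and 0.030. All these means are over 4 pairs, and all had adjusted p of at least 0.656. Among all genes 8.28% were below 0 in all 4 pairs, and 3.68% were below 0 at an unadjusted p under 0.05 (limma).

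The CCN proteins, matricellular regulators of growth factor signals, were uneven among themselves. Ccn3 was below 0 in all 4 pairs, at -0.69, -0.95, -0.39 and -1.13, averaging -0.79 ± 0.32 (SD, n = 4), which is 0.579-fold (limma adjusted p = 0.656). Ccn1 and Ccn2 stood at opposite values in pair 1, 0.61 and -0.80, and both had means smaller than their SD. Tgfbi, the close relative of Postn, averaged 0.0076 ± 0.18. The 4 measured relatives of osteopontin had means between -0.024 and 0.063, of which Ibsp, at 0.063 ± 0.054, was above 0 in all 4 pairs.

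Receptors of these proteins (integrins, syndecans, CD36, CD44, CD47 and Stab1) numbered 18 measured genes. Of these 18, 4 were below 0 in all 4 pairs and 0 above, against 8.28% and 7.31% of all genes. These were Stab1, an endocytic receptor that clears SPARC, at -0.23 ± 0.19 (SD, n = 4), the integrin subunit genes Itga8 at -0.33 ± 0.34 and Itgb5 at -0.05 ± 0.02, and the syndecan gene Sdc2 at -0.18 ± 0.21. Only 1 of the 18, Stab1, had an unadjusted p under 0.05 (limma), where 3.68% of all genes were below 0 at that level. The fibronectin receptor subunits Itga5 and Itgb1 averaged -0.0061 ± 0.15 and -0.012 ± 0.13, the thrombospondin receptors Cd36 and Cd47 0.094 ± 0.27 and 0.013 ± 0.11, and the hyaluronan receptor Cd44 -0.041 ± 0.052. These 5 were chosen after their values were seen and had ratios on both sides of 0.

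Of 12 measured genes that process, degrade or protect this matrix, 7 were below 0 in all 4 pairs and 0 above. Mmp14, a membrane-bound metalloproteinase, stood at -0.25 ± 0.06, Mmp2, the gelatinase it activates, at -0.26 ± 0.10, and Adamts5, which cleaves versican, at -0.19 ± 0.14 (SD, n = 4). Adamts1, Adamts4 and Adamts20, of the same family, had ratios on both sides of 0, with means of -0.07, -0.08 and 0.022. Bmp1, a procollagen proteinase, stood at -0.12 ± 0.06 and Timp1, a metalloproteinase inhibitor, at -0.17 ± 0.09. The 3 of 7 TGF-beta pathway genes below 0 in all pairs were Smad3 at -0.14 ± 0.06, the ligand gene Tgfb3 at -0.31 ± 0.28 and the receptor gene Tgfbr2 at -0.12 ± 0.03. Over the 11 lists together, 21 of 70 genes were below 0 in all 4 pairs and 1 above, against 8.28% and 7.31% of all genes, and 0 passed the adjusted threshold (limma, 18 at an unadjusted p under 0.05, all below 0). Since the lists were chosen with earlier results of these data known, these counts are no independent test.

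**Figure D4:**
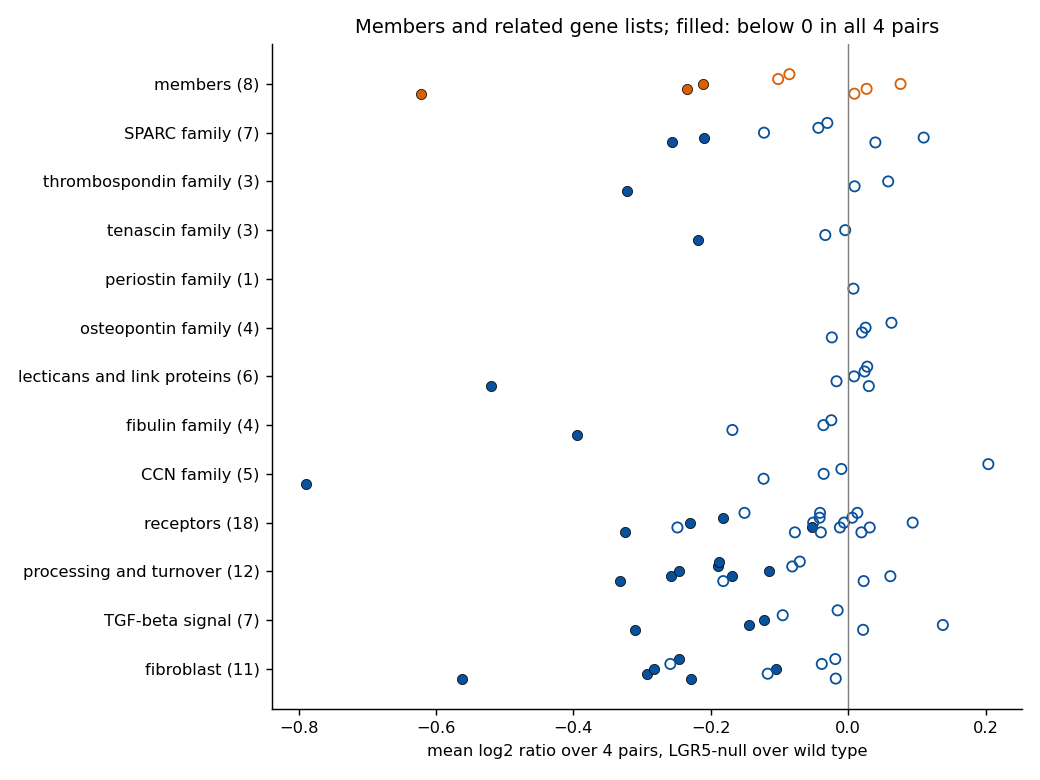
Mean log2 ratio of null over wild type over 4 pairs (horizontal axis) for the 8 measured genes (orange, top), the related lists and the fibroblast markers (blue), 1 symbol per gene with the number of genes in brackets. Filled symbols were below 0 in all 4 pairs. They include Postn, Vcan and Fbln1 in the top row, Ccn3 at -0.79 and 7 genes of processing and turnover.

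Markers of fibroblasts, a main source of these proteins, averaged below 0, while 5 of the 8 genes of the set averaged below 0 and 3 above. The marker lists, like the others, were chosen with earlier results of these data known. All 11 markers averaged below 0, 6 of them in all 4 pairs, against 8.28% of all genes, and their median was -0.23, -0.17, -0.14 and -0.40 in pairs 1 to 4. Dcn, a small matrix proteoglycan, was at -0.56 ± 0.30 and Vim, an intermediate filament protein of mesenchyme, at -0.25 ± 0.16 (SD, n = 4), while Pdgfrb and Thy1 were at -0.019 and -0.018. The 10 endothelial markers also averaged below 0, 5 with that sign in each pair, with a median of -0.12. Of the 9 smooth muscle markers 5 averaged above 0 and 4 below, with a median of 0.022. All 8 epithelial markers averaged above 0, from 0.000125 to 0.21, with a median of 0.053. Of these 8, 1 (Krt18) was above 0 in all 4 pairs, against 7.31% of all genes. Of 3 measured enteric glia markers 2 were below 0 in all 4 pairs, Fabp7 and S100b, and the median of the 3 was -0.53, -0.16, -0.03 and -0.04 in pairs 1 to 4, lowest in pair 1. Of 4 mesothelial markers only Wt1 was below 0 in all 4 pairs, at -0.68 ± 0.11 (SD, n = 4; limma adjusted p = 0.656), and the median of the 4 means was -0.03. The fibroblast median was lowest in pair 4, as was Thbs2, while Postn, Fbln1, Fn1 and Sparc were lowest in pair 1. Vcan (-0.302 in pair 1 and -0.306 in pair 4) and Tnc (-0.046 and -0.042) were about equally low in both. The part of the fibroblast, endothelial, glial and mesothelial markers in the ratios of Postn, Vcan and Fbln1 was not tested.

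The genes most like Postn and Vcan, the 2 with the lowest mean ratios, were found by the root mean square difference of their 4 pair values among 15122 other genes. For Postn they were Sst, a hormone gene, at a difference of 0.052, Sfrp2, a secreted Wnt inhibitor, at 0.15, and Klk1b8, a kallikrein, at 0.15. For Vcan they were Crtap, a collagen-modifying protein, at 0.030, Ror1, a Wnt receptor, at 0.040, and S1pr2, a lipid receptor, at 0.043. Sst stood at -1.41, -0.50, -0.026 and -0.47 in pairs 1 to 4, and Crtap at -0.29, -0.13, -0.13 and -0.32.

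Without pairs 1 and 3, Postn averaged -0.49, Vcan -0.25, Fbln1 -0.12 and Thbs2 -0.26, each below 0 in both remaining pairs, so that 4 of the 8 genes were below 0 in both, against 26.3% of all genes. None passed the adjusted threshold there (limma, lowest adjusted p = 0.927).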

How the data were processed

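Ileum RNA of null and wild-type embryos was labelled with Cy5 or Cy3 and hybridised to MEEBO arrays of 70-base mouse oligonucleotides, per the labels' protocols. The authors deposited 1 log ratio per probe and array for 8 arrays. The labels state no base, numerator or normalization, so the deposited ratios were read as log2 of null over wild type, the direction in which Lgr5 is below 0. Array medians lay between -0.002 and 0.002, and the SD per array between 0.144 and 0.326. The number of arrays limits the precision.

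Probes were named through the platform annotation (22941 of 38467, none with several symbols). Tests used 36591 probes, without 4 identifier classes that hold no named gene. The 2 arrays of a pair were averaged, probes of a gene were averaged, and limma 3.58.1 (R 4.3.3) tested the 4 pair values against 0 (lmFit, eBayes, 2-sided, Benjamini-Hochberg over all probes or all genes, threshold 0.05). Pairs were compared by a moderated F-test on 8 arrays with a dye term. The code was tested on simulated data.

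The members and lists were chosen with earlier results of these data known. Named list genes are those with an unadjusted p under 0.05 and 1 sign in all pairs, at most 5 per list by lowest p, or otherwise the gene of lowest p. Other list genes named were chosen after their values were seen. The files name no genome build; promoters are RefSeq's.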

Additional observations from a re-analysis of the deposited data

Results flagged for a closer look

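A pair was singled out where its gap to the nearest other pair was most of the distance from lowest to highest (Dixon's test at the 95% level). This was examined for 91 genes, probes and list medians, many of which overlap, and chance does this for about 1 in 20. Of the list genes, only those picked by the naming rule above were examined, so the count does not cover every list gene. Found were 6. Postn probe mMA035039 stood at -1.388 in pair 1, against -0.22 to -0.09 in the others, while the other Postn probe did not stand apart. Tnc probe mMA035310 stood at 1.071 in pair 3, against -0.08 to 0.004, through its 1 reading of 2.071. Tnc probe mMA034237 stood at 0.084 in pair 4, against -0.04 to -0.02. The median of the 3 further tenascins stood at 0.0305 in pair 2, against -0.07 to -0.066. Kdr, an endothelial receptor, stood at -0.3495 in pair 1, against -0.16 to -0.14, and the erythroid factor Klf1 at 1.597 in pair 3, against 0.09 to 0.32. Several list genes left out of the 91 also stood apart by this rule. Among them were Fabp7 at -1.179 in pair 1, against -0.164 to -0.03, and Itgb7 at -1.175 in pair 1, against 0.005 to 0.0915. Cpa1 stood at 1.961 in pair 3, against -0.144 to 0.0435.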

How the results depend on the processing

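Of 132 comparisons of a gene's mean with an alternative, 120 kept their direction and their side of the threshold, and 0 became significant. Postn (-0.79 to -0.37), Vcan (-0.26 to -0.20), Fbln1 (-0.28 to -0.087) and Fn1 (-0.17 to -0.0012) kept their sign under every alternative run, these ranges leaving out single probes, the last figures being those without pair 1 except for Vcan, where the second array of pair 3 was left out. The means near 0 turned. Tnc was -0.020 without pair 3, -0.040 with the null sample in Cy5 alone, -0.016 without the second array of pair 3, -0.0066 without pairs 1 and 3, -0.032 with the median of the probes and -0.047 by its lowest probe. Thbs1 was -0.0038 without pair 1, -0.018 without pair 4 and -0.026 with the null sample in Cy3 alone. Sparc was -0.0018 without pair 2 and -0.032 without pair 3, and Thbs2 was 0.023 without pair 4. With 1 pair left out the ranges were -0.020 to 0.051 for Tnc, -0.018 to 0.037 for Thbs1, -0.032 to 0.18 for Sparc and -0.15 to 0.023 for Thbs2. The cause was not tested. The genes of the set below 0 in all pairs used numbered 4 with the null sample in Cy5 alone (12.0% of all genes), 2 with the median of the probes (8.19%) and 3 under the other alternatives on 3 or 4 pairs. With 1 pair left out only 3 pairs had to be below 0, which is an easier condition. Its share of all genes was not computed, so an unchanged count there cannot be read as stability. Over pairs 2 and 4 alone, 4 genes of the set were below 0 in both, as were 26.3% of all genes. Where the 8 arrays were fitted singly with pair as random block, 84 probes and 59 genes passed, and 12 probes and 11 genes with a dye term added. None of the 8 genes or 21 probes of the set passed in either, the lowest adjusted p being 0.0851, for Postn probe mMC021500. The probes that differed between pairs numbered 8384, 5019 without the dye term and 1564 to 8928 with 1 pair left out. Those of the set numbered 2 to 11 with 1 pair left out, 2 being without pair 1, where 4.27% of all probes differed. The alternatives without the second array of pair 3, without pairs 1 and 3, with probe medians and with the block and a dye term were chosen after seeing the data.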
